A study of Mus musculus with 12 samples.

Results

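The RNA of nephron segments beyond the proximal tubule was followed in sorted glomerular cells through 10 genes that mark the loop of Henle, the distal tubule and the collecting duct: Umod, Slc12a1, Kcnj1, Egf, Slc12a3, Pvalb, Calb1, Fxyd2, Hsd11b2 and Aqp2. They were picked by symbol, and all 10 were listed both in the table of dim tdT cells, which holds 17811 genes, and in that of bright tdT cells, which holds 17521 (19564 genes in either). The data are 12 RNA-seq libraries from 6 mice, 3 wild type (WT) and 3 Alport syndrome (AS) mice with the genotype Col4a5 -/-, a model of the hereditary collagen IV disease. All were untreated C57BL/6 mice of 4 months, and all carried the TekCre tdTomato reporter, in which a Cre under the endothelial Tek promoter switches on the red protein tdTomato. According to the study the mice were sex-matched. Glomeruli were sieved from the renal cortex and digested, and the tdT-positive cells of each mouse were sorted by fluorescence into a dim and a bright fraction, so that each of the 4 groups (WT dim, AS dim, WT bright and AS bright) holds 3 libraries and each mouse gave a library to both fractions. The labels call both fractions glomerular endothelial cells. The 10 genes are used as markers of tubule epithelium, and what was compared here is how much of their RNA each sorted fraction held.

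The segments follow each other along the nephron. The thick ascending limb of the loop takes up sodium, potassium and chloride through NKCC2 (Slc12a1), recycles potassium through the channel ROMK (Kcnj1) and secretes uromodulin (Umod) and the precursor of epidermal growth factor (Egf) into the urine and its own surroundings. The distal convoluted tubule takes up sodium chloride through the thiazide-sensitive cotransporter NCC (Slc12a3) and expresses the calcium buffer parvalbumin (Pvalb) in its first stretch, while calbindin-D28k (Calb1) buffers calcium in its later stretch and in the connecting tubule. Fxyd2 is the gamma subunit of the sodium pump and is found in several tubule segments. In the aldosterone-sensitive end of the nephron, Hsd11b2 inactivates cortisol and corticosterone and so keeps the mineralocorticoid receptor free for aldosterone, and Aqp2 is the vasopressin-regulated water channel of the principal cells of the collecting duct.

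Counts on genes ran from 11440169 to 15074909 per library. The summed level of 14 endothelial genes, in CPM (counts per 1000000 counts on genes), was 13279 to 19732 in the WT bright and 16105 to 19353 in the AS bright libraries, against 785 to 1616 in the WT dim and 253 to 335 in the AS dim libraries. The dim libraries instead held 4421 to 6425 CPM (WT) and 8947 to 10470 CPM (AS) of 18 leukocyte genes, which were at 14.9 to 72.1 CPM in the bright ones, where 10 of them were listed. The cell type label therefore had its defining markers in the bright fraction, and the dim libraries are called by their gate alone. Col4a5 had 439 to 877 counts in the WT dim and 17 to 51 in the AS dim libraries, while in bright cells the AS range of 43 to 104 overlapped the WT range of 69 to 158 and gave no check of the labels. The overlap came from the AS bright library of mouse 2 alone, at 104 counts, the others being at 43 and 55. A WT bright library (mouse 1) and an AS bright library (mouse 2) stood apart from the others of their group in the genes described here, and results that rest on them are given with and without them.

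The promoters of 3 genes, 1 for each stretch of the nephron described, are shown for reference, and their part in the levels below was not tested. They are the 250 bases before the RefSeq start on GRCm38.p6, read 5′ to 3′ on the gene's strand, with capitals for the motifs searched on both strands: GTTAAT (the half-site of HNF1 factors, which act throughout the tubule), AGATAA (the site of GATA factors), TATAAA (the TATA box) and CACGTG (an E-box). No motif overlapped another. The Umod window lies at chr7:119479263-119479512 (minus strand), the Slc12a3 window at chr8:94328958-94329207 (plus strand) and the Aqp2 window at chr15:99578806-99579055 (plus strand).
Umod: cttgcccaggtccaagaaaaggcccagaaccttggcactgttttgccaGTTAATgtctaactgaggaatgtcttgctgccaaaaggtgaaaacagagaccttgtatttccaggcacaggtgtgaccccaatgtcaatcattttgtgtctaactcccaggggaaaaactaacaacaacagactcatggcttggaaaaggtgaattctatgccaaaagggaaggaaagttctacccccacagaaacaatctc
Slc12a3: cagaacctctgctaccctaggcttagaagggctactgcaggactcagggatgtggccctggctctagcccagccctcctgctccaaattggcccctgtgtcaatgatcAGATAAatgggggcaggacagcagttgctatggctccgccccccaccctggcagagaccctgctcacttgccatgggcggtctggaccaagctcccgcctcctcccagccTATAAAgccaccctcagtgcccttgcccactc
Aqp2: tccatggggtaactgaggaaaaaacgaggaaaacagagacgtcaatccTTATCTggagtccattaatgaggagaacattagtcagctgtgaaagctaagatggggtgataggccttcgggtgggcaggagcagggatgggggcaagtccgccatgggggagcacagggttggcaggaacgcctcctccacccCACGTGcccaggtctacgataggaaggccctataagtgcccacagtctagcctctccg
The Umod window held GTTAAT, starting 202 bases before the start. The Slc12a3 window held AGATAA at 142 and TATAAA at 32 bases before it, and the Aqp2 window held AGATAA, on the other strand, at 202 and CACGTG at 58 bases. Among all 32851 windows of that length, 6.43% held GTTAAT, 9.99% AGATAA, 12.4% TATAAA and 6.02% CACGTG. Of the 9 windows found for 7 of the 10 genes, GTTAAT was in 1, AGATAA in 2, TATAAA in 1 and CACGTG in 1, and none of the motifs was shared by all of them. All of these were windows of the 3 genes shown, and the other genes with a window held none of the motifs. Calb1, Hsd11b2 and Fxyd2 had no window in the table used.

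The 10 genes together took 1400 to 2572 CPM of the WT dim libraries (1791 ± 676, SD, n = 3), 532 to 962 of the WT bright (773 ± 220.0), 55.6 to 365 of the AS dim (201 ± 156) and 37.3 to 382 of the AS bright libraries (160.3 ± 192). The mean sum was thus 8.92-fold higher in WT dim than in AS dim cells and 4.82-fold higher in WT bright than in AS bright cells. AS mouse 2 was highest in both AS groups, and without its library the ratio was 15.1-fold in dim and 15.6-fold in bright cells, while without the WT bright library of mouse 1 it was 4.23-fold in bright cells. WT dim cells had the highest group mean for 8 genes and WT bright cells for the other 2, Hsd11b2 and Aqp2. AS bright cells had the lowest mean for 7 and AS dim cells for 3, but the ranges of both AS groups overlapped for every gene. In bulk RNA, fewer cells of a type and less RNA per cell cannot be told apart, and this holds for every level below.

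**Figure D1:**
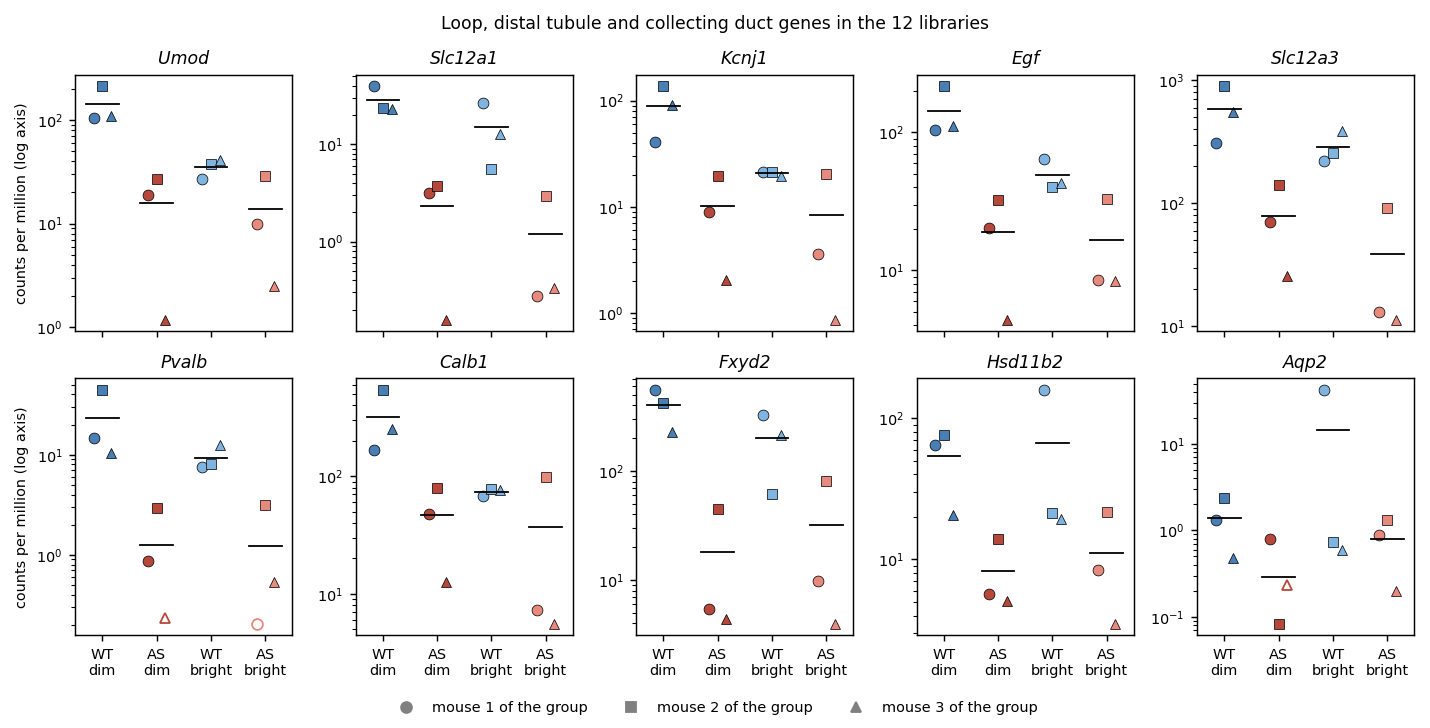
Level of each of the 10 genes in each library, in CPM on a log axis, with 1 point per library, the marker shape giving the mouse of the group and the bar the mean of 3; open symbols stand for a count of 0 and are drawn at the level of 3 counts. For 9 genes, all but Aqp2, the 3 WT dim libraries lie above the 3 AS dim libraries, and mouse 1 stands far above the other WT bright libraries for Aqp2 (42.0 CPM) and Hsd11b2 (158 CPM).

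Per kilobase of merged exons, and so comparable between genes, the WT dim level was highest for Fxyd2 at 100.1 ± 40.8 CPM per kilobase (SD, n = 3). Calb1 (66.0 ± 40.3), Slc12a3 (52.9 ± 26.6), Umod (51.6 ± 21.9), Hsd11b2 (29.3 ± 16), Kcnj1 (26.8 ± 14.4) and Pvalb (22.2 ± 17.7) followed, and the 3 libraries of each overlapped those of its neighbours in this order. Egf, at 12.8 ± 5.53, lay above Slc12a1 (4.97 ± 1.64), which lay above Aqp2 (0.976 ± 0.665), and the 3 libraries of these last neighbours did not overlap. NKCC2 RNA was low beside that of uromodulin, although both mark the ascending limb.

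The first comparison asked how AS and WT differed within the dim fraction. All 9 genes tested fell in AS, by 6.89-fold (Hsd11b2) to 23.9-fold (Fxyd2), each with an adjusted p under 0.05 by edgeR's quasi-likelihood test on the counts (adjusted p 0.0208 to 0.0359, adjusted over 14637 genes). Of all genes tested, 6.42% were called lower and 2.21% higher. The tenth, Aqp2, was too low for the filter. The 3 AS libraries lay below the 3 WT libraries in CPM for each of the 9, as they did for 14.6% of all genes tested. The median log2 fold change was -3.21 over the 9 genes and -0.02 over all genes.

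Umod, the most abundant urinary protein's gene (chromosome 7, 119462711 to 119479282, minus strand of GRCm38, with an antisense gene annotated across it), was at 105, 212 and 110.3 CPM in the WT dim libraries of mice 1, 2 and 3 and at 18.9, 27.2 and 1.18 CPM in the AS dim libraries. The AS mouse 3 was lowest and the highest AS library stayed below the lowest WT library. The log2 fold change, AS over WT, was -3.25 (SE 0.73, adjusted p = 0.0359, edgeR). Slc12a1, the sodium-potassium-chloride cotransporter (chromosome 2, 125152505 to 125230002, plus strand, also with an antisense gene across it), was at 39.5, 23.6 and 22.8 CPM in WT and at 3.16, 3.68 and 0.157 CPM in AS, the last from 2 counts. It had the lowest adjusted p of the 10 genes, 0.0208 (log2 fold change -3.71, SE 0.62, edgeR).

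Kcnj1, the potassium channel ROMK of the ascending limb and the collecting duct (chromosome 9, 32372493 to 32399197, plus strand), was at 40.8, 137 and 90.3 CPM in WT dim and at 8.91, 19.4 and 2.04 CPM in AS dim cells, a log2 fold change of -3.21 (SE 0.67, adjusted p = 0.0296, edgeR). Egf (chromosome 3, 129677565 to 129755316, minus strand, overlapped by 4 annotated genes) was at 105, 216 and 111 CPM in WT and at 20.4, 32.5 and 4.4 CPM in AS, a log2 fold change of -2.98 (SE 0.59, adjusted p = 0.0262, edgeR). The 4 genes of the ascending limb had the same order of mice in AS, with mouse 2 above mouse 1 and mouse 3 far below both. This was not particular to them, since mouse 2 was highest for 9 of the 10 genes and mouse 3 lowest for all 10.

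Of the distal convoluted tubule genes, Slc12a3 (chromosome 8, 94329201 to 94366214, plus strand) was at 308, 897 and 559 CPM in WT dim and at 70.5, 142 and 25.7 CPM in AS dim cells, a log2 fold change of -2.96 (SE 0.59, adjusted p = 0.0269, edgeR). It gave the largest count of any of the 10 genes in a library, 10264 in the WT dim library of mouse 2. Pvalb (chromosome 15, 78191114 to 78206400, minus strand) was at 14.9, 44.2 and 10.4 CPM in WT and at 0.862 and 2.93 CPM in AS mice 1 and 2, with no count in mouse 3, where a count of 0 allows up to 0.236 CPM for counting error only. Its log2 fold change was -4.27 (SE 0.86, adjusted p = 0.0277, edgeR). Calb1, the calcium buffer of the late distal and connecting tubule (chromosome 4, 15881264 to 15908064, plus strand), was at 169, 540.1 and 249.99 CPM in WT and at 47.3, 79.2 and 12.6 CPM in AS, a log2 fold change of -2.84 (SE 0.63, adjusted p = 0.0339, edgeR).

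Fxyd2 (chromosome 9, 45399669 to 45410278, plus strand) was at 552, 423 and 227 CPM in WT dim and at 5.46, 44.4 and 4.4 CPM in AS dim cells. It had the largest fitted change, a log2 fold change of -4.58 (SE 0.85, adjusted p = 0.0237, edgeR), and its share of the counts on the 10 genes was 16.2 to 39.4% in the WT dim and 3 to 12.2% in the AS dim libraries. The highest of these shares was in WT mouse 1, whose dim library also held the most proximal tubule RNA (10293 CPM over 20 genes, against 2595 and 2343 in the others). Hsd11b2 (chromosome 8, 105518755 to 105523988, plus strand) was at 65.0, 76.1 and 20.5 CPM in WT and at 5.67, 14.1 and 5.11 CPM in AS, a log2 fold change of -2.78 (SE 0.57, adjusted p = 0.0283, edgeR). Aqp2 (chromosome 15, 99579055 to 99584547, plus strand) had 16, 27 and 6 counts in the WT dim and 11, 1 and 0 in the AS dim libraries. These ranges overlapped, and with every gene tested its log2 fold change of -2.17 (SE 1.03) had an adjusted p of 0.206 by edgeR.

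The calls in dim cells rested on single libraries. By edgeR's quasi-likelihood test 0 of the genes were called without the AS dim library of mouse 1 or of mouse 3, although the log2 fold changes of the 9 lay between -2.39 and -4.14 and all 9 had an unadjusted p under 0.05. Without the former 0 of 15358 genes were called, with 2972 at an unadjusted p under 0.05, and without the latter 1 of 15352. Without the WT dim library of mouse 2 only Slc12a1 was called, where 5.23% of 15282 genes were, and all 9 had an unadjusted p under 0.05 (edgeR). The older quasi-likelihood fit of edgeR called Slc12a3, Hsd11b2 and Fxyd2, 3 of the 9, and 3.98% of all genes, while DESeq2 and edgeR's likelihood ratio test called all 9, and 15.1% and 13.3% of all genes.

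**Figure D2:**
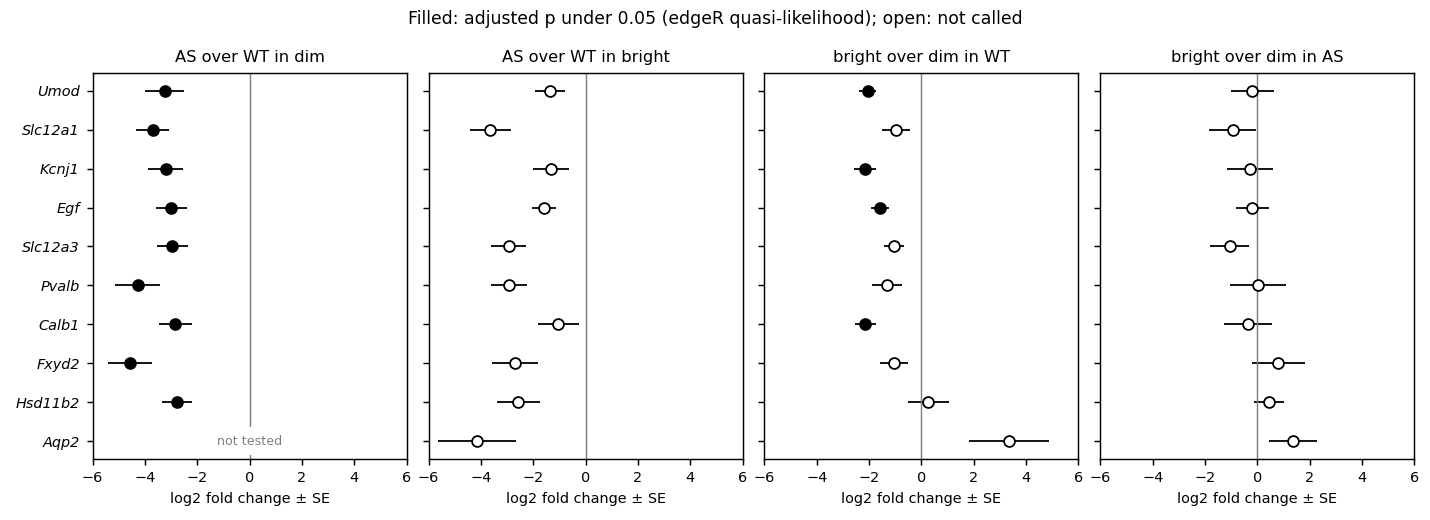
Log2 fold change (x axis) of each gene, with its standard error as the bar, in 4 comparisons; filled points have an adjusted p under 0.05 by edgeR's quasi-likelihood test. In AS over WT, every point lies left of 0 in both fractions, and all 9 dim points but none of the 10 bright points are filled.

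RNA of other cell types differed between the same libraries. The summed level of 20 proximal tubule genes was 2343 to 10293 CPM in the WT dim and 261 to 913 CPM in the AS dim libraries, 10 of 20 were called lower (list median -4.25 on the log2 scale) and none was at 0 throughout a group. Of the endothelial genes, 9 of 13 tested were also called lower, and 3 of 18 leukocyte genes, Csf1r, Adgre1 and Lyz2, were called higher. Of 12 podocyte genes, 4 were called lower and 1 higher. With the mean of the proximal tubule genes as a covariate, 0 of the 9 distal genes were called and 2 had an unadjusted p under 0.05 (log2 fold change -1.27 to -4.08, adjusted p 0.741 to 0.92, edgeR), and of all 14637 genes only 1 was. The proximal tubule sums of the WT and AS dim libraries did not overlap, so this fit cannot separate genotype from proximal tubule RNA. The part of the other cell types in the result was not tested.

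**Figure D3:**
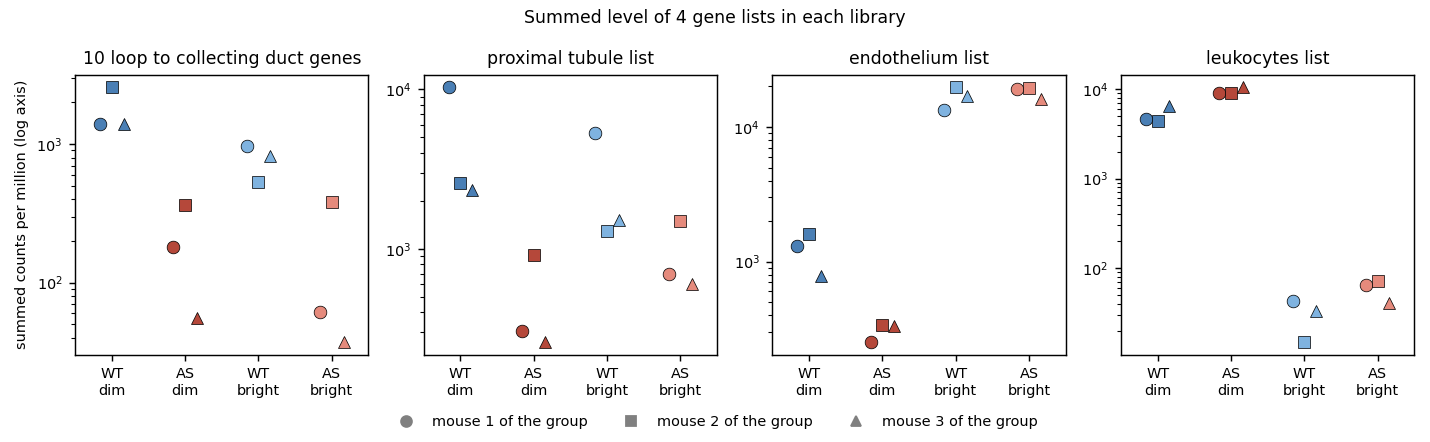
Summed CPM (log axis) of the 10 genes and of the proximal tubule, endothelium and leukocyte lists, with 1 point per library. The 10 genes and the proximal tubule genes are both lowest in AS dim mouse 3 among dim libraries (55.6 and 261 CPM), and endothelial genes separate bright from dim cells.

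In the bright fraction, AS over WT, the fitted change of all 10 genes was below 0, with log2 fold changes of -1.04 (Calb1) to -4.14 (Aqp2) and a median of -2.64, against -0.03 over all genes. None of the 10 was called by edgeR's quasi-likelihood test (adjusted p 0.0592 to 0.472), where 0.452% of 14396 genes were. At an unadjusted p under 0.05 there were 8 of 10, against 3145 of all 14396 genes. DESeq2 called 3 (Slc12a1, Slc12a3 and Egf), where it called 7.76% of all genes, and edgeR's likelihood ratio test called these and Hsd11b2, where it called 5.74%.

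The cotransporters came closest. Slc12a1 was at 26.6, 5.63 and 12.7 CPM in the WT bright and at 0.275, 2.96 and 0.332 CPM in the AS bright libraries, a log2 fold change of -3.64 (SE 0.78, adjusted p = 0.0592, edgeR). Slc12a3 was at 221, 258 and 388 CPM in WT and at 13.1, 91.1 and 11.3 CPM in AS, a log2 fold change of -2.94 (SE 0.65, adjusted p = 0.0601, edgeR). The groups did not overlap for either, nor for Pvalb and Egf, 4 of the 10 genes, where 11.4% of all genes tested lay apart in that direction. Pvalb was at 7.55, 8.12 and 12.5 CPM in WT and at 0, 3.17 and 0.531 CPM in AS (adjusted p = 0.0676, edgeR), and Egf at 63.8, 40.4 and 43.3 CPM in WT and 8.51, 32.7 and 8.42 CPM in AS (adjusted p = 0.101, edgeR).

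For the other 6 genes the AS library of mouse 2 reached into the WT range. Calb1 was at 67.4, 77.4 and 76.5 CPM in WT bright cells and at 7.34, 98.2 and 5.57 CPM in AS bright cells. Umod was at 27.0, 37.4 and 40.9 CPM in WT and at 9.95, 28.8 and 2.52 CPM in AS. Kcnj1 was at 21.4, 21.1 and 19.5 CPM in WT and at 3.57, 20.5 and 0.862 CPM in AS. In each of these, mice 1 and 3 of AS lay below all WT libraries and mouse 2 lay among or above them. Fxyd2 was at 327, 61.6 and 212 CPM in WT and at 9.75, 81.6 and 3.98 CPM in AS, again with only mouse 2 inside the WT range. Mouse 2 had the highest level of all 10 genes among the AS bright libraries, and its sum was 6.18-fold that of mouse 1 and 10.2-fold that of mouse 3. Its proximal tubule genes were also the highest of the group, at 1493 CPM against 691 and 601 CPM. The 20 proximal tubule genes had a median log2 fold change of -2.25 in bright cells, AS over WT, and the 14 endothelial genes one of 0.39, and no gene of either list was called.

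Without the AS bright library of mouse 2, 8 of the 10 genes were called lower, where 1.83% of 15042 genes were called, with a median log2 fold change of -3.94 (adjusted p of the 8, 0.00552 to 0.0492, edgeR). Hsd11b2 and Aqp2 were the exceptions. Slc12a3 alone was called without the WT bright library of mouse 1, where 1.83% of all genes were called. Slc12a1 alone was called without that of mouse 2, where 1.88% of all genes were. None was called without any of the other 3 libraries, where 0 of all genes were called. Without the WT bright library of mouse 1 the median was -1.43 and 6 of the 10 had an unadjusted p under 0.05. With the proximal tubule covariate the median was -0.59 and 3 of the 10 had an unadjusted p under 0.05 (edgeR), against 1280 of all 14396 genes. None of the 10 was called, and 0 of all genes were.

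**Figure D4:**
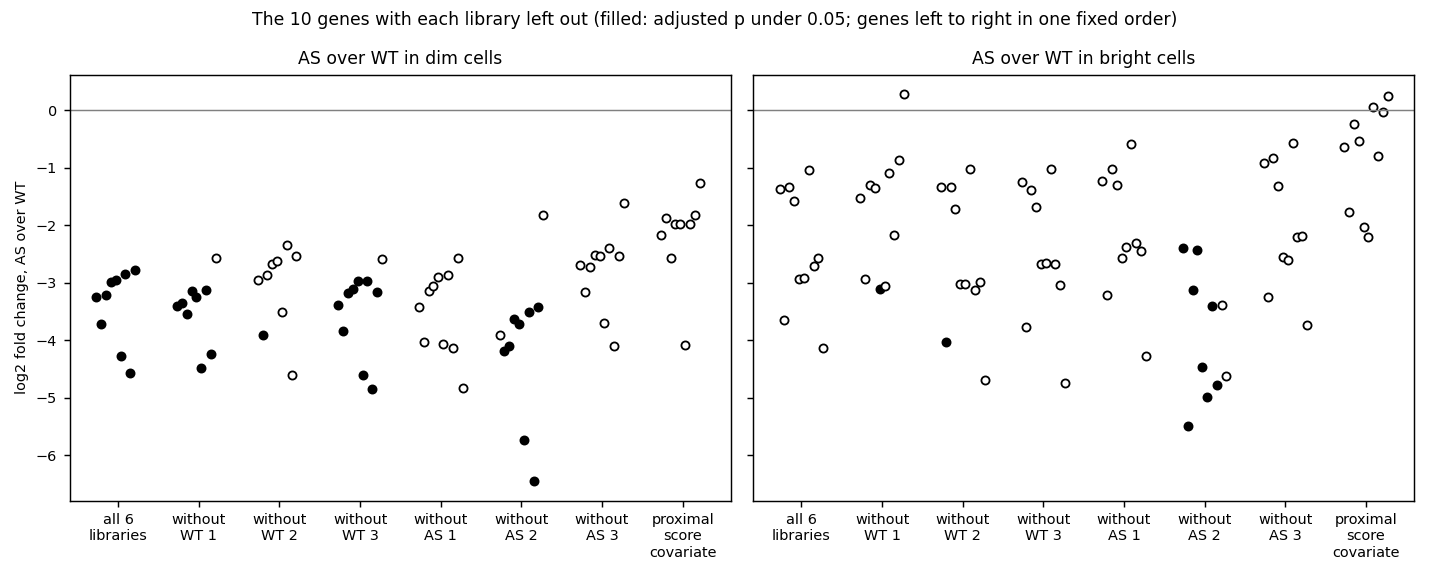
Log2 fold change, AS over WT (y axis), of the tested genes with all 6 libraries of a fraction, without each library in turn, and with the proximal tubule mean as a covariate; filled points have an adjusted p under 0.05. In dim cells the filled points are lost without AS 1 or AS 3, and in bright cells 8 points fill without AS 2.

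Hsd11b2 and Aqp2 were carried by the WT bright library of mouse 1. Aqp2 had 612 counts there and 10 and 9 in the other WT bright libraries, which is 42.0 CPM against 0.731 and 0.60. Hsd11b2 had 2303 counts there and 290 and 292 in the others. The AS bright libraries held 13, 19 and 3 counts of Aqp2 and 122, 314 and 53 of Hsd11b2. Without that library the log2 fold change of Aqp2, AS over WT, went from -4.14 to 0.29 and that of Hsd11b2 from -2.57 to -0.86, with adjusted p of 0.873 and 0.385 by edgeR. The levels of both genes in the remaining WT bright libraries fell within the AS range.

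Among the WT bright libraries, that of mouse 1 had the highest CPM for 11 of 13 listed genes of the intercalated cell list and 4 of 7 of the principal cell list. It also held 5291 CPM of the 20 proximal tubule genes, against 1298 and 1515 in the others, whose part in these values was not tested. Foxi1, the transcription factor of intercalated cells, had 748 counts there and 136 and 196 in the other WT bright libraries. Slc4a1, the anion exchanger of acid-secreting intercalated cells and red cells, had 487, 64 and 121 counts, and Slc26a4, the exchanger pendrin of base-secreting intercalated cells, had 279, 59 and 18. The basolateral water channel Aqp3 had 151, 20 and 21 counts and the claudin Cldn4 had 400, 35 and 54. These 5 were chosen after their values were seen. Others of the lists did not follow, since Nr3c2 had 190, 273 and 295 counts, Scnn1a 131, 116 and 222, and Tfcp2l1 285, 253 and 324 in mice 1, 2 and 3. The cotransporter gene Slc12a3 and Umod were lowest, not highest, in that library among the WT bright ones.

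The next comparison set bright over dim cells of the same genotype. In WT mice 4 of the 10 genes were called lower in bright cells, where 11.5% of 14247 genes were called lower and 13.8% higher. They were Kcnj1 (log2 fold change -2.15, SE 0.41, adjusted p = 0.00485), Calb1 (-2.14, SE 0.39, adjusted p = 0.00359), Umod (-2.05, SE 0.33, adjusted p = 0.00199) and Egf (-1.59, SE 0.33, adjusted p = 0.00784), all by edgeR's quasi-likelihood test. For these 4 the WT bright libraries lay below the WT dim libraries without overlap, as 18.5% of all genes did. The same 4 were called in each fit that left out 1 library.

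The dim and bright libraries of a number came from the same mouse. In 3 of 3 WT mice the bright library was lower for 7 of the genes, the 4 called and Slc12a1, Slc12a3 and Fxyd2. Slc12a3 (log2 fold change -1.06, SE 0.38, adjusted p = 0.0742, edgeR) passed with the mouse as a block, at an adjusted p of 0.0337. The NCC level was 221, 258 and 388 CPM in bright and 308, 897 and 559 CPM in dim cells of WT mice 1, 2 and 3. Fxyd2 (-1.04), Slc12a1 (-0.99) and Pvalb (-1.31) were not called (adjusted p 0.193, 0.213 and 0.119, edgeR). Hsd11b2 (0.26, SE 0.78) and Aqp2 (3.35, SE 1.52) were the 2 genes with a value above 0, and neither was called. Without the WT bright library of mouse 1 they were -1.43 and -1.06, at adjusted p of 0.0938 and 0.353 by edgeR.

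In AS mice 0 of the 10 genes were called in either direction, although 55.1% of 14052 genes were. The median log2 fold change was -0.19, with 6 genes below and 4 above 0, and the groups overlapped for every gene. The log2 fold changes were -1.06 for Slc12a3, -0.95 for Slc12a1, -0.35 for Calb1, -0.28 for Kcnj1, -0.19 for Egf and Umod, 0.027 for Pvalb, 0.45 for Hsd11b2, 0.80 for Fxyd2 and 1.37 for Aqp2. At an unadjusted p under 0.05 there were 0 of 10, and DESeq2 also called 0. With the mouse as a block Slc12a3 was called (log2 fold change -1.34, adjusted p = 0.00335, edgeR), which was lower in the bright library in 3 of 3 AS mice, at 13.1, 91.1 and 11.3 CPM against 70.5, 142 and 25.7 CPM. Without the AS bright library of mouse 2, Slc12a3 (-2.62) and Calb1 (-2.77) were called, and without the AS dim library of mouse 1, Aqp2 (4.04). The latter rests on the AS dim libraries of mice 2 and 3 with 1 and 0 counts. The median was -1.69 without the AS bright library of mouse 2 and 0.48 without the AS dim library of mouse 2.

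Within AS the order of the mice was the same in both fractions. Mouse 2 had the highest sum of the 10 genes in both fractions (365 CPM dim and 382 CPM bright), mouse 1 came next (182 and 61.8 CPM) and mouse 3 was lowest (55.6 and 37.3 CPM). In WT the order turned between fractions, since mouse 2 was highest in dim (2572 CPM) and lowest in bright cells (532 CPM).

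Whether the AS effect differed between fractions was tested as an interaction over all 12 libraries. None of the 10 genes was called by edgeR's quasi-likelihood test (adjusted p 0.354 to 0.99), and 0 of the 10 had an unadjusted p under 0.05, while 3.77% of 15084 genes were called. DESeq2 also called 0. The log2 difference, bright minus dim, was 1.91 for Fxyd2 and Kcnj1, 1.90 for Umod, 1.83 for Calb1, 1.44 for Egf, 1.38 for Pvalb, 0.27 for Hsd11b2, 0.12 for Slc12a1, 0.037 for Slc12a3 and -1.88 for Aqp2. The median of the 10 was 1.41 and that of all genes 0.13, which library sizes alone moved to -0.03. With the mouse as a block Umod alone was called (log2 difference 1.89, adjusted p = 0.0382, edgeR), where 5.81% of all genes were. Its log2 fold changes were -3.25 in dim and -1.37 in bright cells. Without the block its adjusted p was 0.354 (edgeR), and its difference ran from 0.75 to 2.42 with a library left out. Without the AS bright library of mouse 2 the median of the 10 turned to -0.68. The contrast between 9 calls in dim and 0 in bright cells is thus not shown to be a difference between the fractions. For Umod the call rests on the block.

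Wider lists of the same segments were counted as well. In AS dim cells, 2 of 5 tested genes of the ascending limb list were called lower, 2 of 10 of the distal convoluted tubule, 3 of 5 of the connecting tubule, 2 of 7 of the principal cells, 3 of 5 of the intercalated cells and 12 of 20 of the general tubule epithelium, and 0 of any of these lists was called higher, where 6.42% of all genes tested were called lower and 2.21% higher. The list medians were -2.33 to -3.21 on the log2 scale. The claudin Cldn19 of the ascending limb was read 19, 14 and 11 times in the WT dim libraries against 1, 3 and 3 times in the AS dim libraries, a log2 fold change of -2.76 (adjusted p = 0.024, edgeR). Klk1, the kallikrein made by the connecting tubule, had more reads, with 8210, 13125 and 8299 counts in WT against 855, 1858 and 467 in AS (log2 fold change -3.36, adjusted p = 0.0197, edgeR). The calcium-binding S100g (-3.38) and the co-receptor Kl (-2.89), the kinase Wnk4 (-3.71) and the potassium channel Kcnj16 (-3.73) of the distal convoluted tubule, and the proton pump subunits Atp6v0a4 (-3.77) and Atp6v1b1 (-3.21) with the ammonia channel Rhcg (-3.69) were called lower as well. As with the 10 genes, 0 genes of these lists were called by edgeR without the AS dim library of mouse 1 or of mouse 3, where 0 and 1 of all genes were.

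Not all listed genes went with them. Trpv5, the calcium channel of the distal nephron, was not called, with 25, 32 and 21 counts in the WT dim libraries against 64, 67 and 12 in the AS dim libraries. Nr3c2, the mineralocorticoid receptor, was lower in AS dim cells (-3.51, adjusted p = 0.0482, edgeR), but its bright counts of 190, 273 and 295 in WT overlapped the 246, 236 and 334 of AS, and it was the only gene of the principal cell list with a called interaction (3.65, adjusted p = 0.0405, edgeR). This call was lost without the WT bright library of mouse 1, the AS bright library of mouse 2, or the AS dim library of mouse 1 or 3 (3.13 to 3.73, adjusted p 0.0636 to 0.0981, edgeR). Of the 14 endothelial genes, 10 had a called interaction above 0 (list median 2.59), and their part in the value of Nr3c2 was not tested.

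In bright cells, AS over WT, 1 gene of these lists was called: the magnesium channel Trpm6 of the distal convoluted tubule, whose counts were 534, 236 and 632 in WT against 20, 99 and 20 in AS (log2 fold change -3.34, SE 0.57, adjusted p = 0.0412, edgeR). Foxi1 came near it (-3.77, SE 0.81, adjusted p = 0.0592, edgeR). Without the WT bright library of mouse 1 these were -3.23 (adjusted p = 0.0281, edgeR) for Trpm6 and -2.66 (adjusted p = 0.0627, edgeR) for Foxi1. Without the AS bright library of mouse 2, 4 of 10 genes of the distal convoluted tubule list, 3 of 4 of the connecting tubule, 7 of 20 of the general epithelium and 1 or 2 of each other list were called lower, where 1.83% of all genes were called. In WT mice, where 11.5% of all genes were called lower and 13.8% higher in bright cells, the connecting tubule list was called lower for 5 of 5 genes, among them Slc8a1, Trpv5 and Klk1. The intercalated cell list split, with Slc4a1 (4.46), Foxi1 (4.28) and Atp6v0d2 called higher in bright cells and Slc26a7 (-3.39) called lower. Without the WT bright library of mouse 1, Slc4a1 (3.21) and Foxi1 (3.19) were still called higher, while Atp6v0d2 (2.29, adjusted p = 0.0891, edgeR), Slc26a7 (-3.23, adjusted p = 0.123, edgeR) and Slc8a1 (-3.29, adjusted p = 0.102, edgeR) were not called. Foxi1 had 14, 29 and 1 counts in the WT dim and 748, 136 and 196 in the WT bright libraries, without overlap and against the direction of the 4 genes called lower. In AS mice the calcium channel Trpv5 (-3.47) and the sodium-calcium exchanger Slc8a1 (-2.33) of the connecting tubule list and the sodium channel subunit Scnn1a (-2.73) of the principal cell list were called lower in bright cells, and Nr3c2 (4.02) was called higher, where 55.1% of all genes were called. Without the AS bright library of mouse 2 these were -5.01, -4.25, -3.05 and 4.12, all called.

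Genes that varied most like the mean of the 10 over the 12 libraries were sought among 11830 genes with a mean log2 CPM above 1. The most alike were the claudin Cldn8 (Pearson r 0.992), the beta-defensin Defb1 (0.979), Aldh1l1 (0.978), Trabd2b (0.976), 1700011H14Rik (0.973), Kcnj16 (0.971), Cobl (0.971), Pck1 (0.97), Wwc1 (0.969) and Rhcg (0.969). The libraries share mice and differ by group, so that these values describe likeness across these 12 libraries and no more. Cldn8, a claudin of the distal nephron, had 359, 963 and 630 counts in the WT dim, 55, 113 and 10 in the AS dim, 454, 178 and 342 in the WT bright and 21, 190 and 15 in the AS bright libraries. Pck1, an enzyme of glucose synthesis known from the proximal tubule, was among the 10. Among the 10 genes whose mean was used, Aqp2 was least like it (0.577) and Egf most (0.981).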

How the data were processed

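RNA from sorted cells was sequenced by the authors as poly-A libraries made with a KAPA kit. Per the labels' processing notes and the study's methods, reads were checked with FastQC 0.11.5, trimmed, aligned with STAR 2.6.0c to GRCm38.p5 and counted per gene of the Gencode M16 annotation, and the deposited counts are not normalized. The strand counted is not given in the sources used here, so a gene and an antisense gene across it cannot be told apart. The deposited gene length column is of another kind than counts; for several genes it exceeded the merged exons (15989 against 5763 bases for Slc12a1), and merged exons of Gencode M21 on GRCm38 were used instead. Deposited RPKM values and the authors' own fold changes and p-values were not used.

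Counts were tested with edgeR 4.0.16 in R 4.3.3 (TMM, filterByExpr, glmQLFit with legacy = FALSE, glmQLFTest), without the ERCC spike-ins (0.0286 to 0.282% of counts). The p-values were Benjamini-Hochberg adjusted across every gene in a test, and a call is an adjusted p under 0.05. CPM are counts per 1000000 counts on genes of a library. Steps were tested on simulated data. Alternatives were DESeq2 1.42.0, edgeR's likelihood ratio test, RLE factors, no factors beyond library size, every gene with a count, the replicate number as a block, a proximal tubule covariate, all 12 libraries in a single fit and each library left out. The version 3 fit of edgeR was added after the data had been seen.

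The members and all lists were chosen with earlier results of these data known. All 10 members are named in every comparison, with up to 3 genes of each segment list, those with the largest change among the called or, where none was called, the 2 with the highest mean count, and the 10 genes most like the mean of the members; a few genes named by this rule are not reported here. Dim and bright libraries of a number are from the same mouse per the labels; their deviations from the group means correlated at 0.0974 to 0.288 in WT and 0.043 to 0.311 in AS. Numbers of WT and AS mice mark different mice. Replicate pairs differed by a chi-square of 29.5 to 104 per degree of freedom, so none was the same library.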

Additional observations from a re-analysis of the deposited data

Results flagged for a closer look

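The AS effect differed between bright and dim cells for Nr3c2, the mineralocorticoid receptor on the principal cell list, by the interaction term of edgeR's quasi-likelihood test over all 12 libraries. The log2 difference was 3.65 (SE 0.90, adjusted p = 0.0405, edgeR), and it was not called without the WT bright library of mouse 1, the AS bright library of mouse 2, or the AS dim library of mouse 1 or 3 (adjusted p 0.0636 to 0.0981, edgeR). Dim libraries gave 288, 107 and 56 counts in WT mice against 18, 26 and 1 in AS mice, while the bright libraries of both genotypes held 190 to 334. Markers of other cell types moved with it, since 10 of 14 endothelial genes also had a called interaction above 0 (list median 2.59), and their part in the value of Nr3c2 was not tested. Among the 10 genes of the loop, distal tubule and collecting duct themselves, none had a called difference without the mouse as a block.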

How the results depend on the processing

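Counts of the 10 genes called changed with the test. In AS over WT dim cells, 9 were called under edgeR's quasi-likelihood test, 3 under its version 3 fit (an alternative chosen after seeing the data), 0 with the proximal tubule covariate, and 0 to 9 with a library left out. In AS over WT bright cells, 0 were called, against 3 by DESeq2, 4 by the likelihood ratio test, and 0 to 8 with a library left out. Over all genes in these fits, the covariate left 1 called in dim and 0 in bright cells. Leaving out a library left 0 to 11.9% of all genes called in dim and 0 to 1.88% in bright cells. In bright over dim cells, 4 to 5 were called in WT and 0 to 2 in AS with a library left out, where 17.3 to 23.3% and 45.6 to 52.2% of all genes were called. The cause of these changes was not tested. Over all genes tested, the AS effect in dim cells was called for 1263 genes, 582 by the version 3 fit, 2213 by DESeq2, 1946 by the likelihood ratio test, 494 with the replicate number as a block and 2106 with all 12 libraries together. In bright cells 65 genes were called, 1117 by DESeq2, 827 by the likelihood ratio test, 39 with every gene with a count, 139 with all 12 libraries together, 16 with the block and 0 by the version 3 fit (2906 at an unadjusted p under 0.05). The interaction was called for 569 genes, and for 1186 by DESeq2, 1114 by the likelihood ratio test and 877 with the block.

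With the mouse as the replicate block between fractions, 5 of the 10 genes were called in WT, where 31.2% of all genes were, 1 in AS, where 55.2% were, and 1 in the interaction, where 5.81% were. The block changed no other call of these genes. Between WT and AS mice, which share only a number, it left 9 called in dim and 0 in bright cells.

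Some directions turned. In AS over WT bright cells with the proximal tubule covariate, Calb1 was at 0.059 and Aqp2 at 0.25 on the log2 scale, and with the block Hsd11b2 was at -0.21 in WT bright over dim cells. Pvalb in AS bright over dim cells was at -0.011 by library sizes alone, -0.080 by DESeq2, -0.062 by the likelihood ratio test, -0.046 by the version 3 fit and -0.12 with the block, against 0.027 in the fit reported. With a library left out, Aqp2 ran from -4.74 to 0.29 in AS over WT bright cells and from -1.06 to 3.92 in WT bright over dim cells, where Hsd11b2 ran from -1.43 to 0.70. In AS bright over dim cells, Umod ran from -1.27 to 0.41, Calb1 from -2.77 to 0.24, Kcnj1 from -2.11 to 0.55, Hsd11b2 from -0.40 to 1.02, Pvalb from -2.08 to 1.43, Egf from -1.10 to 0.39 and Fxyd2 from -1.30 to 2.62. In the interaction, Slc12a3 was at -0.0039 by RLE, -0.020 by library sizes alone, -0.010 by DESeq2 and -0.29 with the block, against 0.037, and with a library left out it ran from -1.60 to 0.64, Slc12a1 (-0.046 by library sizes alone, against 0.12) from -1.88 to 0.78, Calb1 from -0.66 to 2.34, Aqp2 from -2.53 to 2.47, Hsd11b2 from -0.70 to 1.92, Pvalb from -0.80 to 2.69 and Fxyd2 from -0.30 to 3.61. Of 381 counts and fold changes under settings that kept all libraries, 343 kept their direction and side of the threshold, as did 274 of 354 with a library left out. With 3 libraries a group, 0 to 27 counts of Aqp2 in a dim library and 0 to 35 of Pvalb in an AS dim library, small differences of these genes were not detectable. The libraries of a group come from different mice per the labels, so the p-values of AS over WT measure the spread between mice. Without the block, the bright over dim and interaction fits treated the dim and bright libraries of a mouse as independent and left out the pairing.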
